A study of Rattus norvegicus with 64 samples.

Results

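The 16 saline rats held in a 39 C environment were compared by how much of their blood transcriptome was alpha hemoglobin. In each rat the expected counts of Hba-a2 (ENSRNOG00000029886) and Hba2 (ENSRNOG00000047321), the genes listed for alpha globin, were summed and divided by all expected counts of that rat. The 8 rats with the highest shares, called the high-share rats, were set against the 8 with the lowest, called the low-share rats, so that all 16 heat-exposed rats of the 64 rats in the series were used. The groups were thus chosen by the measured alpha hemoglobin share, and the same rats fell in them when all hemoglobin genes, or the genes common to all files, were used. The shares are therefore given as a description, and only other genes were tested.

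Hemoglobin is a tetramer of alpha and beta globin chains, each holding a heme group that binds oxygen. Globin mRNA in blood is carried mainly by reticulocytes, the young red cells that have lost their nucleus but still translate, and it is lost as they mature. Reticulocytes also carry mRNA for heme synthesis, the membrane skeleton and antioxidant enzymes, while leukocytes and platelets supply most of the remaining blood mRNA. Because globin mRNA dominates whole blood RNA, it is commonly removed before sequencing, as it was here with a kit directed at alpha and beta globin, and the share measured is what was left after that step.

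All rats were adult male Sprague-Dawley rats of 85 to 90 days, and each was a separate sample of whole blood drawn by cardiac puncture 3 h after the last of 4 injections given 2 h apart. The heat-exposed rats (Saline Hyperthermic-EIH) received saline at 39 C. The other 48 rats served only as rats that had no part in the choice of groups. They were 22 rats given amphetamine at 22.5 C (Amphetamine Hyperthermic), 15 given amphetamine at 16 C (Amphetamine Noromothermic, as the label spells it), 6 given saline at 22.5 C (Saline Control) and 5 given saline at 16 C (Saline Control Cool Environment). The amphetamine doses rose from 5 mg/kg at the first injection through 7.5 mg/kg to 10 mg/kg at the last pair, and saline was given at 1 ml/kg. Total expected counts in the heat-exposed rats ran from 21348745 to 39569802, and with the hemoglobin genes left out the groups differed by less than the spread between rats (23175555 ± 4844727 in the high-share and 24680802 ± 3962077 in the low-share rats, SD, n = 8 each, two-sided exact permutation p = 0.510). Genes detected numbered 14729.8 ± 693 and 15007 ± 427 (SD, n = 8 each, two-sided exact permutation p = 0.347). Of the genes listed for whole blood cells, 21 for neutrophils, 19 for monocytes, 23 for T cells, 18 for B cells and 21 for platelets passed the filter on low counts. No pair of these rats was a repeat of 1 library, since the lowest chi-square per gene among 120 pairs was 126. The p-values below measure the spread between rats.

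The alpha hemoglobin share spanned a wide range among rats that had been treated alike. In the high-share rats it ran from 12.6% to 31.9%, with a median of 15.2%, and in the low-share rats from 2.20% to 11.8%, with a median of 4.65%, a 14.5-fold range over the 16 rats. Rat 16 stood alone at 31.9%, since the next rat was at 15.8%. The other 7 high-share rats lay close together, from 12.6% to 15.8%. At the boundary, rat 12 was the last rat inside the high-share group at 12.6% and rat 10 the first outside at 11.8%, so the split did not fall in a gap. The widest gaps among the low-share rats lay between rat 11 at 9.09% and rat 14 at 6.14%, and between rat 14 and rat 2 at 3.17%. The shares in the other 48 rats ran from 2.07% to 29.4%, and in the 6 Saline Control rats from 5.59% to 9.98%.

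**Figure D1:**
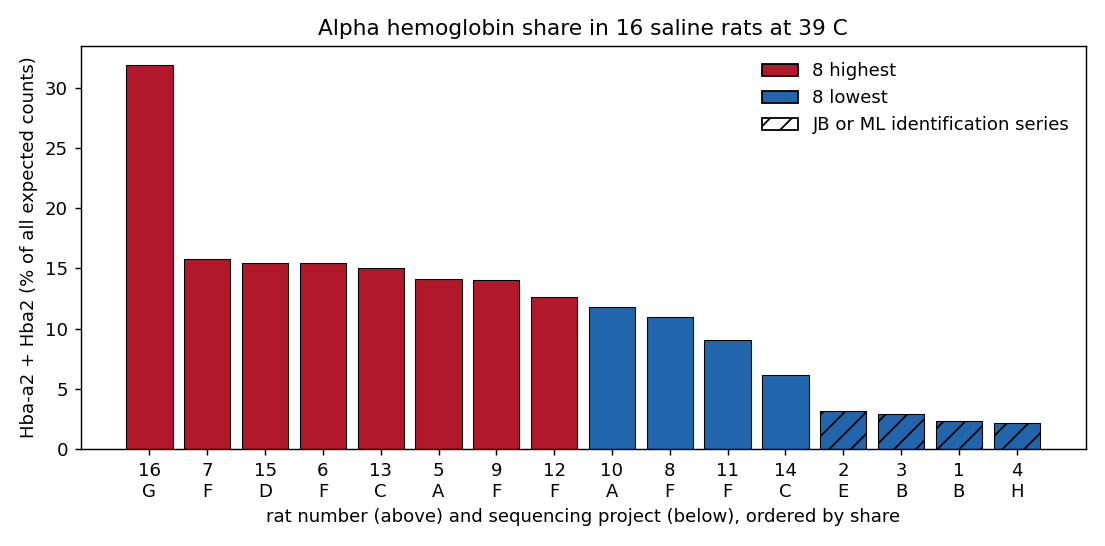
Bars give the summed Hba-a2 and Hba2 expected counts as a percentage of all expected counts for each of the 16 heat-exposed rats, ordered from the highest, with the rat number and the sequencing project under each bar. The 4 hatched bars, rats of the JB and ML identification series, are the 4 lowest, and rat 16 at 31.9% stands above all others.

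The split did not fall evenly on the sequencing projects, which are named here by letters from the codes of the deposited files. The 16 rats came from 8 projects, and 3 of these projects held rats of both groups. Project F held 6 rats, 4 high-share and 2 low-share, and projects A and C held 1 rat of each group. Projects D and G held 1 high-share rat each, project B held 2 low-share rats, and projects E and H held 1 low-share rat each, so for these 6 rats the project and the group cannot be told apart. The identification series in the labels divided the rats more sharply. All 8 high-share rats and 4 of the low-share rats carried FG numbers, while the 3 JB rats and the ML rat were the 4 rats with the lowest shares, 2.20% to 3.17%. Among the rats given amphetamine at 22.5 C, the 6 JB and ML rats also had low shares, 2.07% to 4.67% (median 2.53%), beside a median of 7.93% in the other 16 rats of that group. The 5 JB rats given amphetamine at 16 C ran from 6.93% to 29.4%. Within project B alone, the 2 heat-exposed rats were at 2.36% and 2.88%, the 2 rats given amphetamine at 22.5 C at 2.07% and 2.23%, and the 4 rats given amphetamine at 16 C at 6.93% to 29.4%.

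The beta and theta hemoglobin transcripts spanned smaller ranges than the 2 alpha genes in these rats. Hba-a2 took 1.66% to 21.7% of counts and Hba2 0.519% to 10.1%. Their ratio was 1.55 to 3.23, and because the genes are near-identical copies the division of reads between them is uncertain. The 3 beta globin genes (Hbb, HBB and Hbb-b1) together took 1.10% to 3.63% in the high-share rats (median 1.43%) and 0.582% to 1.86% in the low-share rats (median 1.13%). These beta shares overlapped over most of their range. Beta globin thus spanned 6.23-fold where alpha spanned 14.5-fold. Hbq1b, a theta globin gene at low level, took 0.0235% to 0.130% (median 0.0752%) and 0.0434% to 0.0862% (median 0.0696%), again with overlap.

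The alpha to beta ratio described the same rats in another way. It was 4.27 to 22.7 in the high-share rats and 1.74 to 11.5 in the low-share rats. Rat 16, with the highest alpha share, had a beta share of 1.41% and the highest ratio. Rat 6 had the highest beta share, 3.63%, and the lowest ratio of the high-share rats. The 4 JB and ML rats had the 4 lowest ratios, 1.74 to 3.77, while their Hbq1b shares, 0.0562% to 0.0862%, lay within the range of the FG rats. How far the globin removal step accounted for differences between rats was not tested.

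**Figure D2:**
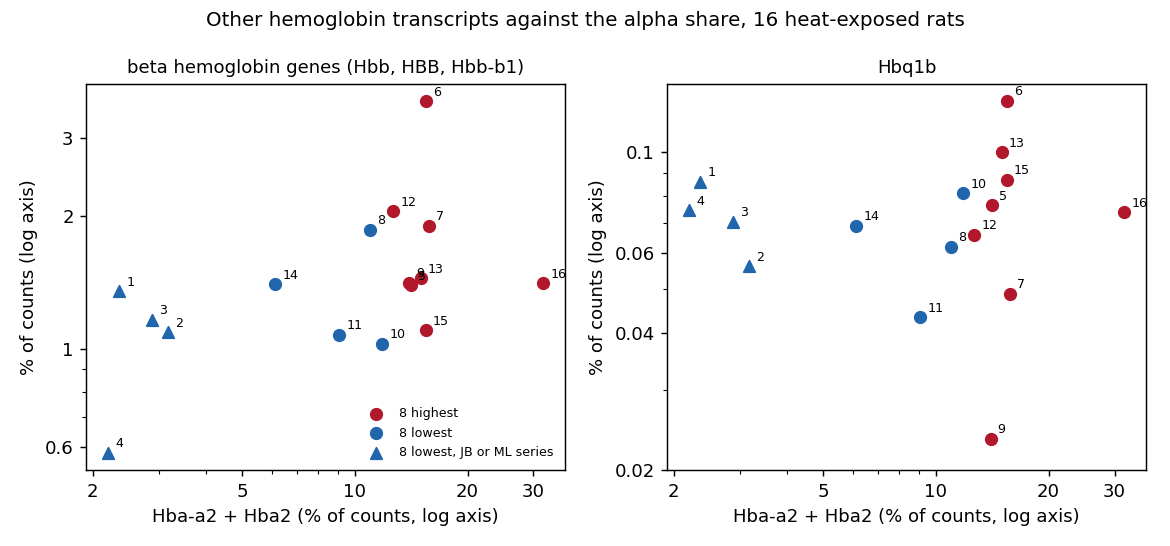
Each point is 1 heat-exposed rat, labelled with its number, with the alpha hemoglobin share on the horizontal axis and the share of the beta globin genes (left) or of Hbq1b (right) on the vertical axis, all as percentages of counts on log axes. Rats 6 and 16 are far apart on both panels, and the 4 rats of the JB and ML series (triangles) lie at the left with Hbq1b shares like those of the other rats.

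Outside the hemoglobin genes, no gene passed the test between the high-share and low-share rats. With the hemoglobin genes left out of the library sizes, which were scaled by TMM factors, edgeR's quasi-likelihood test found 0 of 11593 genes (0%) at an adjusted p under 0.05, and the lowest adjusted p was 0.465. At an unadjusted p under 0.05 there were 1164 genes (10.0%), 577 higher (4.98%) and 587 lower (5.06%) in the high-share rats. The biological coefficient of variation between rats was 0.472. Counts were also simulated with the means of these rats and the spread fitted as a trend over expression level. There edgeR recovered 29% of genes changed by 1 log2 unit and 98% of those changed by 2. A count of 0 therefore does not exclude changes of 1 log2 unit. Each gene was drawn on its own, with no projects and no rat that departed in many genes at once. The recovery in the real rats may thus be lower, also for changes of 2 log2 units. Of the calls in simulated counts, 6.62% were false in edgeR and 16.6% in DESeq2. DESeq2's Wald test called 64 genes (0.552%), and 17 of these were genes of ribosomal proteins, but with its replacement of outlying counts switched off it called 8 (0.0690%), with no ribosomal gene among them. Using the log2 share of each rat in place of the groups, edgeR called 32 genes (0.276%), 13 rising and 19 falling with the share, and 0 of these were in the lists examined here. Iqcc, named after its values were seen, was the 1 gene of 11593 (0.00863%) whose groups did not overlap, at 13.0 to 22.4 normalized counts in the high-share rats (median 15.9) and 23.6 to 57.3 in the low-share rats (median 32.2).

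The count of 0 depended on rat 8. This rat ranked 10 by share, at 11.0%, and so fell in the low-share group, but its summed normalized counts were the highest of the 16 rats for the membrane, transcription factor and enzyme lists and ranked 2 for heme synthesis and iron handling. As a percentage of counts outside hemoglobin, where no size factor enters, it ranked 6, 4, 2, 6 and 6 for these lists. Leaving out rat 8 brought 825 of 11767 genes (7.01%) past the threshold, 624 higher (5.30%) and 201 lower (1.71%) in the high-share rats. Leaving out any other rat gave 0. Without rat 8, the fit on the 11 FG rats, of which 3 were low-share rats, called 0 genes. The fit on 15 rats with the project as a covariate also called 0. In that fit only the rats of projects A, C and F, which held both groups, bear on the difference. These 2 fits had 1037 and 908 genes at an unadjusted p under 0.05. The direction depended on the scaling, since without TMM factors the median of all genes fell to -0.62 and 142 of 4022 called genes were higher. Rat 8 was sequenced in project F with 22819854 counts outside hemoglobin, and its TMM factor of 0.487 was the lowest of the 16, against 0.614 to 1.75 in the other rats. The part of this scaling in the calls was not tested beyond these alternatives.

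The genes of heme synthesis had positive log2 fold changes, with overlap between the groups and no call. Alas2, the erythroid enzyme that starts heme synthesis, had 405623, 194293, 304364, 561777, 286796, 318862, 68914 and 387320.0 normalized counts in the high-share rats, in order of share. In the low-share rats it had 175944, 514539, 145993, 115308, 116526, 157027, 207225 and 94353. The groups overlapped, since rat 8 was exceeded only by rat 6, and rat 9, a high-share rat, had the lowest count of all. The log2 fold change of Alas2 (ENSRNOG00000000167) was 0.73 ± 0.42 (SE), with an adjusted p of 0.542. Urod, which makes coproporphyrinogen, stood at 3141 to 24603 normalized counts in the high-share rats (median 10912) and 3098 to 23846 in the low-share rats (median 4672). Its log2 fold change was 0.73 ± 0.44 (SE) with an adjusted p of 0.562. Alad, the enzyme that forms porphobilinogen, differed by 0.81 ± 0.40 (SE) log2 units (adjusted p = 0.509), and Cpox, a later enzyme of the path, by 0.72 ± 0.32 (SE) (adjusted p = 0.487). Fech, which puts iron into the porphyrin ring, differed by 0.55 ± 0.47 (SE). Uros and Ppox, further enzymes of the path, stood at 0.65 ± 0.44 (SE) and 0.22 ± 0.43 (SE). Alas1, the form of the first enzyme used outside red cells, stood at 0.64 ± 0.65 (SE).

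Of the 9 heme synthesis genes tested, 0 were called, 9 had a positive log2 fold change, and their median was 0.65, beside -0.02 over all genes tested, of which 47.5% were positive. Without rat 8 the median was 1.06 and 2 were called higher (beside 5.30% of all genes in that fit), Alad (log2 fold change 1.28, adjusted p = 0.0295) and Urod (1.30, adjusted p = 0.0328), while Alas2 had an adjusted p of 0.0536. Genes of reticulocytes share their cells with hemoglobin, so their counts describe the split and are no separate evidence. In whole blood, fewer reticulocytes and less RNA per reticulocyte cannot be told apart.

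Genes of the red cell membrane and its skeleton also had mostly positive log2 fold changes. Icam4, the Landsteiner-Wiener adhesion protein, differed by 1.08 ± 0.43 (SE) (adjusted p = 0.479), and Aqp1, the red cell water channel, by 0.70 ± 0.38 (SE) (adjusted p = 0.526). Ermap, an erythroid membrane protein, differed by 0.87 ± 0.42 (SE), Epb49, which bundles actin in the skeleton, by 0.82 ± 0.36 (SE), and Rhd, a Rh blood group protein, by 0.79 ± 0.51 (SE). Slc4a1, the anion exchanger band 3, was at 14708 to 81073 normalized counts in the high-share rats (median 40396) and 17018 to 52992 in the low-share rats (median 24325). Its log2 fold change was 0.54 ± 0.34 (SE), with an adjusted p of 0.570. Epb42, which binds band 3, differed by 0.78 ± 0.40 (SE), Slc14a1, the urea transporter of red cells, by 0.77 ± 0.42 (SE), Tspo2, an erythroid membrane transporter, by 0.71 ± 0.37 (SE) and Ank1, which ties spectrin to the membrane, by 0.69 ± 0.30 (SE).

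The remaining members lay lower. Rhag, partner of the Rh proteins, differed by 0.59 ± 0.46 (SE), Epb4.1, which joins spectrin to actin, by 0.57 ± 0.30 (SE), Tmod1, which caps actin filaments, by 0.55 ± 0.38 (SE), and Sptb, the beta chain of spectrin, by 0.53 ± 0.38 (SE). Cd59, an inhibitor of complement, stood at 0.32 ± 0.37 (SE), Add2, an adducin of the red cell skeleton, at 0.29 ± 0.40 (SE), Kel, a blood group protein, at 0.23 ± 0.53 (SE), Gypc, a glycophorin, at 0.10 ± 0.29 (SE) and Stom, stomatin, at 0.10 ± 0.33 (SE). Slc2a1, a glucose transporter found in many cells, stood at 0.0018 ± 0.41 (SE). Negative values were held by Add1, the widely expressed adducin, at -0.34 ± 0.21 (SE) and Xk, a membrane protein tied to Kel, at -0.91 ± 0.69 (SE). Xk had 609.7 normalized counts in rat 8 and at most 212 in the other 15 rats, and without rat 8 its log2 fold change was 0.19. In all 21 of 23 tested members were positive and 0 were called, with a median of 0.57, and 8 were called higher without rat 8, beside 5.30% of all genes in that fit.

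Among transcription factors of the red cell line, Klf1, which switches on adult globin genes, was at 3634 to 15856 normalized counts in the high-share rats (median 11779) and 2383 to 22326 in the low-share rats (median 4694). Rat 8 held the highest value, 22326, and rat 9, at 3634, was the only high-share rat below the other low-share rats' highest value of 5848. The log2 fold change of Klf1 (ENSRNOG00000003443) was 0.81 ± 0.42 (SE) with an adjusted p of 0.523. Without rat 8 it was 1.44 with an adjusted p of 0.0194. The master regulator Gata1 is listed under 2 identifiers, GATA1 (ENSRNOG00000047663) at 0.88 ± 0.31 (SE) and Gata1 (ENSRNOG00000025534) at 0.77 ± 0.34 (SE), and how reads were divided between them is uncertain. Epor, the erythropoietin receptor, differed by 0.64 ± 0.32 (SE), Sox6, which silences embryonic globin, by 0.66 ± 0.39 (SE), Lyl1, a relative of Tal1, by 0.56 ± 0.39 (SE) and Zfpm1, the cofactor of Gata1, by 0.54 ± 0.26 (SE). Gfi1b, a repressor, differed by 0.53 ± 0.48 (SE) and Nfe2, which acts at the globin locus and in platelet formation, by 0.49 ± 0.38 (SE).

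Other factors differed less or the other way. Bcl11a, a repressor of fetal globin, stood at 0.47 ± 0.56 (SE), Tal1, part of the erythroid complex, at 0.25 ± 0.38 (SE), Foxo3, a stress response factor, at 0.17 ± 0.22 (SE) and Klf3, which opposes Klf1, at 0.08 ± 0.21 (SE). Lmo2, a bridging protein of the Tal1 complex also found in other blood cells, stood at -0.36 ± 0.17 (SE), with 566 to 1203 normalized counts in the high-share rats (median 997) and 1069 to 1433 in the low-share rats (median 1162). Its partner Ldb1 stood at -0.32 ± 0.23 (SE) and E2f4, a cell cycle factor, at -0.14 ± 0.13 (SE). In all 13 of 16 tested entries were positive, 0 were called, and the median was 0.51. Without rat 8 the median was 0.86 and 6 entries were called higher, beside 5.30% of all genes in that fit.

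**Figure D3:**
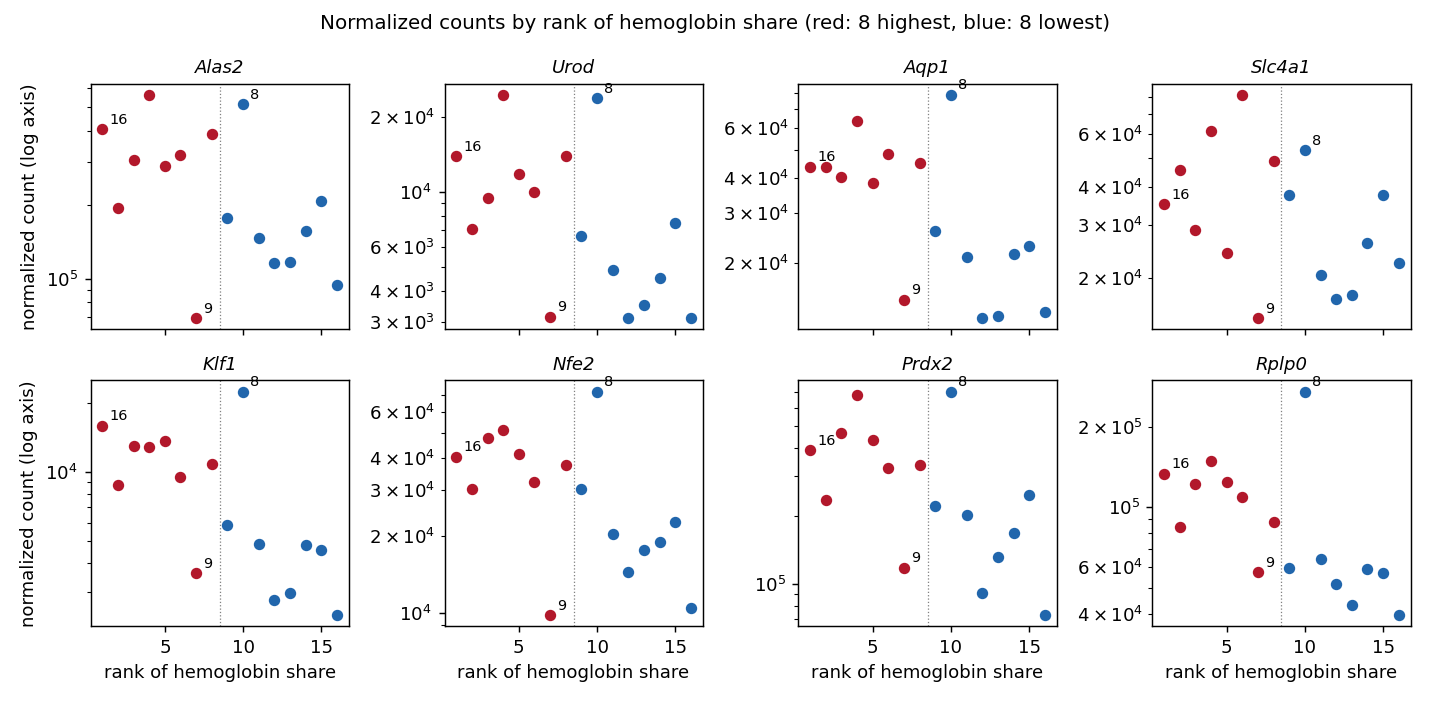
Each panel gives the normalized counts of 1 gene (log axis) in the 16 heat-exposed rats against the rank of their hemoglobin share, with high-share rats in red, low-share rats in blue and rats 8, 9 and 16 labelled. Rat 8 lies among the highest rats in every panel although it ranks 10 by share. Rat 9, which ranks 7, lies at or near the bottom except for Rplp0, where rats 1, 2, 4 and 14 lie below it.

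Enzymes and maturation genes of reticulocytes were the largest red cell list. UBB (ENSRNOG00000042271), a polyubiquitin gene, was at 462274 to 2206289 normalized counts in the high-share rats (median 1195639) and 275705 to 2567017 in the low-share rats (median 628818). Prdx2, the chief peroxiredoxin of red cells, was at 117838 to 683392 normalized counts in the high-share rats (median 361644) and 72951 to 706341 in the low-share rats (median 184075). Neither separated the groups, with log2 fold changes of 0.65 ± 0.47 (SE) and 0.71 ± 0.45 (SE) and adjusted p-values of 0.628 and 0.580. Rnf10, a ubiquitin ligase, differed by 0.31 ± 0.37 (SE). Of the 45 tested members 0 were called and 41 were positive, with a median of 0.48. In the list for iron and heme handling, the ferritin chain genes Ftl (ENSRNOG00000031506), FTL1 (ENSRNOG00000020843) and Fth1 (ENSRNOG00000022619) had the highest mean counts, with log2 fold changes of 0.66 ± 0.39 (SE), 0.66 ± 0.38 (SE) and 0.55 ± 0.38 (SE), and 17 of 20 tested members were positive with a median of 0.63. Without rat 8, 11 of 45 and 8 of 21 members of these lists were called higher, beside 5.30% of all genes in that fit.

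The 5 red cell lists together held 113 tested genes, of which 101 had a positive log2 fold change, 14 were higher and 1 lower at an unadjusted p under 0.05 (beside 4.98% and 5.06% of all genes), and 0 were called. Without TMM factors, the median of all genes moved from -0.02 to -0.50 and the medians of the 5 lists to between 0.09 and 0.31, which was 0.59 to 0.81 above all genes, as against 0.51 to 0.67 above them with TMM. As a percentage of counts outside hemoglobin, the 5 lists took 11.1% to 24.7% (median 17.7%) in the high-share rats and 11.6% to 18.9% (median 14.3%) in the low-share rats. Rat 16, with the highest alpha share, ranked 10 of the 16 rats on this scale, at 15.3%. Rat 6 was the highest at 24.7%, rat 8 ranked 3 at 18.9%, and rat 9 was the lowest at 11.1%. By single list, rat 16 ranked 3 for heme synthesis and for transcription factors, 8 for the membrane, 10 for enzymes and 15 for iron handling. The enzyme and iron lists, which hold UBB and the ferritin genes, made up most of its sum, at 8.67% and 3.93%.

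**Figure D4:**
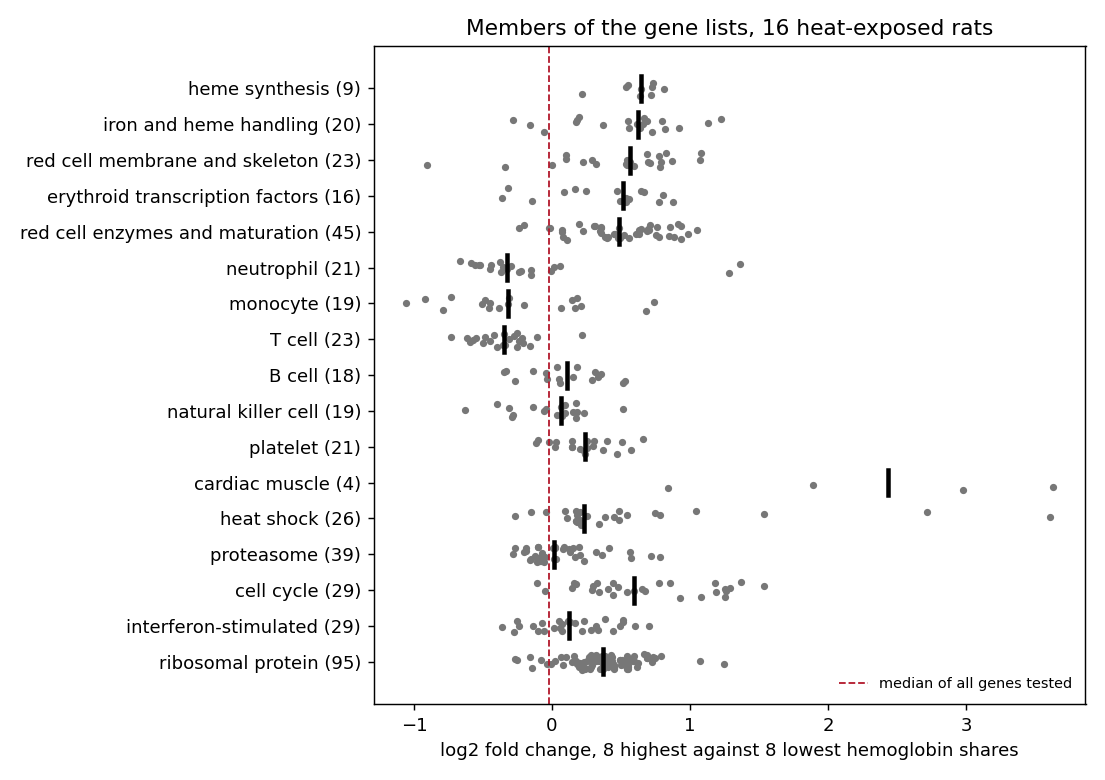
Points give the edgeR log2 fold change of each tested gene of a list, high-share against low-share rats, with the number of tested genes in brackets, black bars give list medians and the dashed line the median of all genes. The 5 red cell lists have medians of 0.48 to 0.65, neutrophil, monocyte and T cell lists lie below 0, and no point passed the adjusted threshold.

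The T cell, neutrophil and monocyte lists had negative medians, with 0 calls. Of 23 tested T cell genes, 22 had a negative log2 fold change, with a median of -0.35. Lck, the kinase of the T cell receptor, was at 267 to 1387 normalized counts in the high-share rats (median 651) and 382 to 2012 in the low-share rats (median 739.8), with a log2 fold change of -0.48 ± 0.37 (SE). Tcf7, a transcription factor of naive T cells, stood at -0.73 ± 0.51 (SE) and Il7r, the interleukin 7 receptor, at 0.22 ± 0.36 (SE). Of 21 neutrophil genes 17 were negative, with a median of -0.33, and S100a8 and S100a9, the calprotectin chains, stood at -0.33 ± 0.37 (SE) and -0.15 ± 0.36 (SE), and Csf3r, the receptor for the growth factor of neutrophils, at -0.37 ± 0.29 (SE). Monocyte genes had a median of -0.32 with less uniform signs. Of the 19 tested entries, both of Nos2 and those of Cebpb, Emr1, Itgax, Il1b and Arg1 were positive, and the rest negative. Over all genes tested 47.5% were positive. Lyz2, lysozyme, was at 46718 to 395527 normalized counts in the high-share rats (median 210479) and 106344 to 494466 in the low-share rats (median 331540.4), with a log2 fold change of -0.50 ± 0.43 (SE). Fn1, fibronectin, stood at -0.46 ± 0.54 (SE) and Il1b, an inflammatory cytokine, at 0.15 ± 0.38 (SE). The T cell median turned positive, to 0.31, with the project as a covariate.

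B cell, natural killer cell and platelet lists lay closer to all genes, with medians of 0.11, 0.07 and 0.24 over 18, 19 and 21 tested genes. Cd79b and Ms4a1, markers of B cells, stood at 0.03 ± 0.41 (SE) and 0.16 ± 0.38 (SE), and Cd37, a tetraspanin of B cells, at -0.34 ± 0.23 (SE). For natural killer cells, Ccl5, a chemokine, stood at 0.18 ± 0.34 (SE), while Prf1 and Gzmb, which kill target cells, stood at -0.40 ± 0.28 (SE) and -0.14 ± 0.46 (SE). The platelet genes Pf4, a chemokine of platelet granules, Clec1b, a platelet receptor, and Nrgn, a calmodulin-binding protein, stood at 0.30 ± 0.36 (SE), 0.23 ± 0.39 (SE) and 0.37 ± 0.37 (SE). Summed platelet genes ran from 98521 to 311578 (median 168326) in the high-share rats and 76072 to 390098 (median 111872) in the low-share rats, and rat 8 was the highest rat. As a percentage of counts outside hemoglobin the order of the medians turned, to 0.604% and 0.621%, and rat 8 ranked 3. Without rat 8 the platelet median was 0.69 and 2 of 21 members were called higher (beside 5.30% of all genes in that fit), and it was -0.20 in the FG rats.

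Chaperone genes varied widely between rats held at the same temperature. Hsp90aa1, a heat-inducible chaperone, was at 71179.9 to 349492 normalized counts in the high-share rats (median 127831) and 16593 to 461199 in the low-share rats (median 131977), with the lowest value in rat 14 and the highest in rat 11, both low-share rats. Its log2 fold change was 0.18 ± 0.57 (SE) with an adjusted p of 0.926. Hsph1, a chaperone of the Hsp110 family, stood at -0.27 ± 0.55 (SE) and Hsp90ab1, the constitutive Hsp90, at 0.17 ± 0.45 (SE). The 26 tested members had a median of 0.23 and 0 calls. Proteasome and interferon-stimulated lists had medians of 0.01 and 0.12 over 39 and 29 genes. Their members with the highest mean counts were Psmf1, an inhibitor of the proteasome, at 0.36 ± 0.43 (SE), Psmd4, a ubiquitin receptor, at 0.78 ± 0.34 (SE) and Psmd8, a lid subunit, at 0.57 ± 0.34 (SE), and Irf7, a regulator of interferon genes, at 0.32 ± 0.49 (SE), with Ifit3 and Rsad2, antiviral proteins, at 0.49 ± 0.43 (SE) and 0.70 ± 0.36 (SE). Without rat 8, 3 of 39 and 2 of 29 members of these lists were called higher, beside 5.30% of all genes in that fit, a share near that background.

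Cell cycle genes held the largest share of low unadjusted p-values among the lists. Of 29 tested members 27 were positive with a median of 0.60, 11 had an unadjusted p under 0.05, all of them higher (beside 4.98% of all genes), and 0 were called. Mki67, a marker of dividing cells, was at 609 to 6607 normalized counts in the high-share rats (median 2070.0) and 729.7 to 3898 in the low-share rats (median 1141), and its log2 fold change was 0.93 ± 0.42 (SE) with an adjusted p of 0.487. Tpx2, a spindle protein, stood at 0.48 ± 0.50 (SE) and Rrm2, which makes deoxynucleotides, at -0.11 ± 0.33 (SE). Summed normalized counts of the list had a median of 9896 in the high-share and 7046 in the low-share rats. As a percentage of counts outside hemoglobin the order of these medians turned, to 0.0377% and 0.0386%. Leaving out rat 8 gave 11 calls, all higher (beside 5.30% of all genes in that fit), while the FG rats alone gave 0 calls and a median of 0.39.

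Ribosomal protein genes, which encode the structural proteins of the ribosome, depended on rat 8. Their sum ran from 1308338 to 3069937 (median 2164714) in the high-share rats and 843174 to 5260903 (median 1139612) in the low-share rats. Rat 8 held the highest sum, 5260903, against at most 3069937 in any other rat. As a percentage of counts outside hemoglobin it was at 10.7%, next to 10.1% in rat 16. Rplp0, a protein of the ribosomal stalk, was at 57056 to 148296 normalized counts in the high-share rats (median 115364) and 39538 to 270162 in the low-share rats (median 57717), with a log2 fold change of 0.43 ± 0.39 (SE). Rpl41 and Rps29, small ribosomal proteins, stood at 0.75 ± 0.42 (SE) and 0.63 ± 0.45 (SE). Over the 95 tested entries 0 were called and 88 were positive with a median of 0.37. Without rat 8, 67 of 96 entries were called higher, beside 5.30% of all genes, and the median was 0.87. In the FG rats the median was 0.00, 0 were called, and without rat 8 the FG rats had a median of 0.76 with 0 calls. Several of these genes have near-identical copies, so values of single entries are uncertain.

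Cardiac muscle genes were carried by 1 high-share rat. Mb, myoglobin, had 9909 expected counts in rat 12, 1133 in rat 4, 365 in rat 15 and at most 54 in the other 13 rats. Only 4 of 19 listed cardiac genes passed the filter, with a median log2 fold change of 2.44, and without rat 12 this was -0.13. Mb itself differed by 3.63 ± 1.61 (SE) with an adjusted p of 0.487, Actc1, cardiac actin, by 2.98 ± 1.44 (SE) and Tnnc1, a troponin, by 0.84 ± 0.60 (SE), and without rat 12 no gene was called.

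Within the 3 sequencing projects that held both groups, the pattern of red cell genes was not uniform. In project A, rat 5 exceeded rat 10 by a median of 0.39 log2 units over the heme synthesis genes and 0.90 over the membrane genes. In project C, rat 13 exceeded rat 14 by 1.49 and 1.12. In project F, the mean of 4 high-share rats differed from that of 2 low-share rats by -0.10 and 0.03, where rat 8 was 1 of the 2 low-share rats and rat 9 was 1 of the 4. Over the iron handling, transcription factor and enzyme lists the differences were 0.85, 0.36 and 0.54 in project A and 1.11, 0.94 and 1.28 in project C. In project F they were -0.15, -0.08 and -0.29, all negative. Ribosomal genes differed by 0.69, 0.98 and -0.37 in the 3 projects. These values rest on 1 to 4 rats a group and were not tested. With the project as a covariate, edgeR called 0 genes and the 5 red cell lists had medians of 0.08 to 0.37. With the 12 FG rats alone it called 0 genes, and the medians were 0.18 to 0.36.

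**Figure D5:**
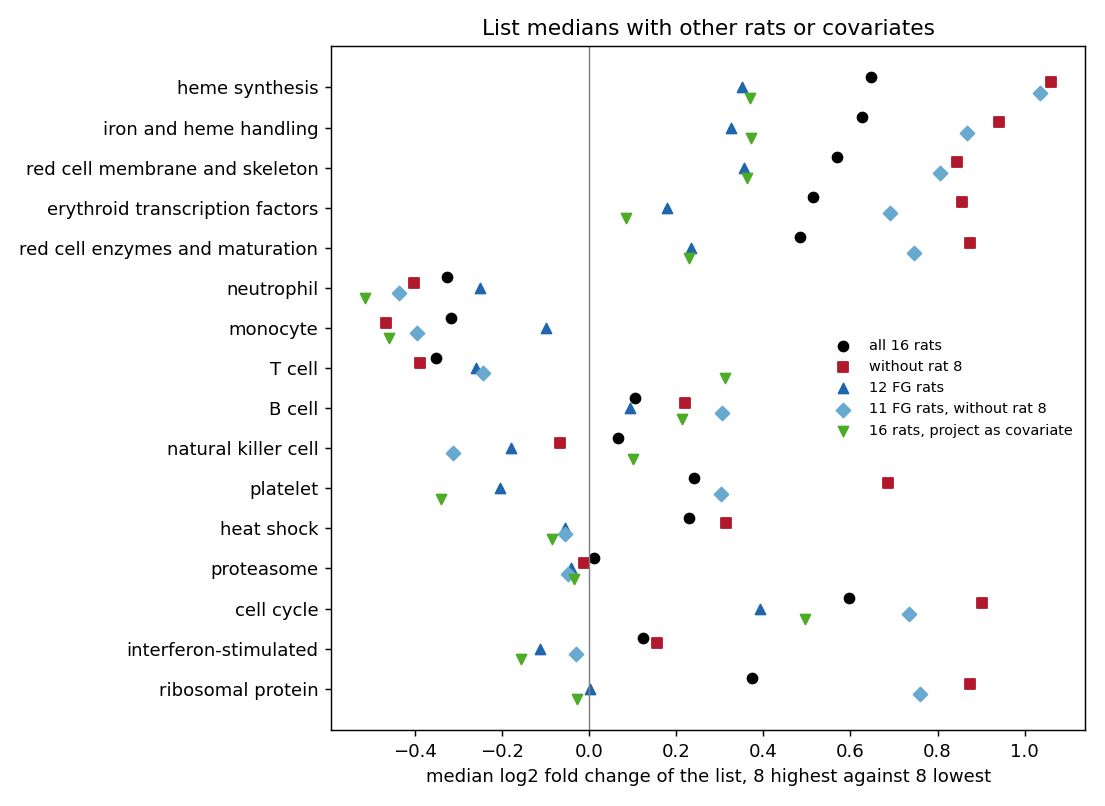
Symbols give the median log2 fold change of each list, high-share against low-share rats, over all 16 rats, without rat 8, in the 12 FG rats, in the 11 FG rats without rat 8, and over 16 rats with the sequencing project as a covariate. The red cell medians stay above 0 under all 5, between 0.08 and 1.06, while platelet, heat shock and T cell medians, among others, take both signs.

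The question of which genes go with the hemoglobin share was also put to the 48 rats that had no part in the choice of groups, with group and project as covariates. There edgeR called 1376 of 13229 genes (10.4%) per doubling of the share, 922 rising (6.97%) and 454 falling (3.43%). Of the red cell genes tested in these rats, 22 of 115 were called, all rising, with a median of 0.27 log2 units per doubling. Rhag rose by 0.68 (adjusted p = 0.00404), Icam4 by 0.62 (adjusted p = 0.0169), Epb49 by 0.55 (adjusted p = 0.0443) and Fech by 0.44 (adjusted p = 0.0302). Lck fell by 0.59 (adjusted p = 0.00691). Of the ribosomal entries 45 rose and 3 fell among 100, and 10 of 14 cardiac genes rose. The calls were fewer without 4 rats with more than 5000 Mb counts, Amphetamine Noromothermic rats 2 and 12 and Saline Control rats 20 and 22. In the remaining 44 rats 131 of 13095 genes (1.00%) were called, 125 rising and 6 falling. None of them was in a red cell list, and 0 of 99 ribosomal and 0 of 10 cardiac genes were called. The median over the red cell lists was then 0.17 per doubling, with 97 of 115 positive, and Fech stood at 0.31, Alad at 0.29 (from 0.35 in the 48 rats) and Urod at 0.33 (from 0.33). Since 0 genes were called in the heat-exposed rats, no gene was called in both. Without rat 8, 330 genes were called with the same sign in both. This was 40% of the 825, beside 10.4% of all genes called in the 48 rats. It was 24.0% of the 1376, beside 7.01% of all genes called without rat 8. Against the 131 genes called without the 4 Mb rats it was 12 genes. These were 1.45% of the 825, beside 1.00% of all genes, and 9.16% of the 131, beside 7.01%. The overlaps count only genes of the same sign, while the 10.4%, 7.01% and 1.00% count calls of either sign. These shares therefore overstate the background of a same-sign overlap. By sign, the background was 6.97% rising and 3.43% falling in the 48 rats, and 5.30% higher and 1.71% lower without rat 8.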

How the data were processed

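RNA of whole blood from 64 rats was sequenced after depletion of alpha and beta globin mRNA (stranded mRNA libraries, Illumina HiSeq). The authors clipped adapters with fastq-mcf, aligned reads to rat transcripts of Ensembl release 70 and deposited 1 table of expected counts per gene for each rat. The submitters' processing notes name CASAVA 1.8.2, Bowtie 0.12.9, RSEM 1.2.0 and the build rn5. Expected counts were rounded to whole numbers here. The rats were ranked by alpha hemoglobin share. Of the 17486 genes listed in all 16 tables, those with at least 10 counts in at least 8 rats were tested, without the 10 hemoglobin genes, by the quasi-likelihood test of edgeR 4.0.16 (R 4.3.3, TMM factors, Benjamini-Hochberg adjustment, threshold 0.05), with DESeq2 1.42.0 as an alternative. Normalized counts are counts divided by DESeq2 size factors computed without hemoglobin genes. Single values were compared by two-sided exact permutation. Scripts were tested on simulated data. Gene lists, like the choice of rats, were made with earlier results of these data known. Tested members of the heme synthesis, membrane and transcription factor lists were named, other than members that are not reported here, and in every other list the 3 with the highest mean normalized counts. Largest changes among called genes were to be named too, but no gene was called. Project letters come from codes in the file names, and the codes are not explained in the labels. No sequence is shown.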

Additional observations from a re-analysis of the deposited data

Results flagged for a closer look

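In 14 of 40 groups of 8 rats, the highest or lowest rat lay far enough from the others to pass Dixon's 95% criterion, where chance gives about 5% of groups, and the groups share rats, so the 14 are not independent. Among the high-share rats, rat 16 was flagged by its alpha hemoglobin share of 31.9%. That share chose the groups, so the 5% does not apply to it and the value is a description. Rat 6 stood apart from the other high-share rats by its beta globin share of 3.63%. Rat 9 was the lowest high-share rat, apart from the others, in summed normalized counts of the membrane list (75716), the transcription factor list (29944) and the interferon-stimulated list (28128).

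On the scale of normalized counts, rat 8 stood above the other 7 low-share rats in 8 lists. Its summed normalized counts were 2513238 for iron and heme handling, 441343 for the red cell membrane, 168375 for erythroid transcription factors and 5534002 for red cell enzymes. They were 390098 for platelet genes, 95653 for the proteasome, 157891 for interferon-stimulated genes and 5260903 for ribosomal proteins. All of these were divided by its size factor of 0.466, the lowest of the 16 rats. As a percentage of counts outside hemoglobin, which uses no size factor, rat 8 ranked 15 of the 16 rats for the proteasome (0.195%). On that scale rat 1 exceeded it for iron and heme handling (5.56% against 5.13%), rats 1 and 10 for the membrane list, and rat 10 for the transcription factor and interferon-stimulated lists. Rat 4 was the highest low-share rat for cardiac muscle genes, at 1992 normalized counts.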

How the results depend on the processing

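In edgeR, 0 genes were called with DESeq2 size factors, with hemoglobin in the library size, without the filter, with the project as covariate, in the largest project, in the 7 highest against the 7 lowest, without rats above 5000 Mb counts, in FG rats alone or without TMM factors. Counts moved under DESeq2 (64 genes, 34 with a log2 fold change beyond 1, 17 in the lists, 25 also called in the other 48 rats), DESeq2 with no replacement of outlying counts (8 and 5), and the log2 share as covariate (32 and 2, 9 also called in the other rats). Leaving out 1 rat at a time gave 0 to 825 calls, 0 to 469 beyond 1, 0 to 120 in the lists and 0 to 330 shared with the other rats, all the high values without rat 8. Of all genes tested in the other 48 rats, 10.4% were called with either sign, while the shared counts need the same sign. Without rat 8, DESeq2 size factors gave 843 calls, 486 beyond 1, 123 in the lists and 342 shared, and no TMM factor 4022, 1834, 114 and 262, with Klf3 turning to -0.64. In the other 48 rats the count was 131 without the 4 rats above 5000 Mb counts. The causes were not tested. Of 90 genes named by rule, 38 were called under some alternative, 25 of them without rat 8, while 53 changed sign under some alternative, 18 of them on leaving out 1 rat. The FG subset, the fits without TMM factors, DESeq2 without replacement and the combined settings without rat 8 were chosen after seeing the data.

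No paired analysis was possible because the high-share and low-share rats belong to 1 labelled group, in which no replicate number occurs more than once. The precision was set by the spread between rats.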

Other observations

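Chac1 and collagen genes, named after their values were seen, had large differences between the groups, which edgeR did not call with all 16 rats. Chac1, an enzyme that degrades glutathione and is induced under amino acid stress, was at 31.8 to 209.7 normalized counts in the high-share rats (median 115) and 9.38 to 78.9 in the low-share rats (median 29.1). Its log2 fold change was 1.93 ± 0.44 (SE), with an adjusted p of 0.465 in edgeR and 0.00505 in DESeq2, and 5 of 8 high-share rats lay above every low-share rat. In edgeR it was called without rat 8 (1.98, adjusted p = 0.0242) and per doubling of the share over the 16 rats (0.93, adjusted p = 0.0489). In the FG rats it was 1.52 and in the other 48 rats 0.40 per doubling of the share (adjusted p = 0.386). Lama1, a laminin chain, was at 494 to 1195 normalized counts in the high-share rats (median 762) and 145 to 715 in the low-share rats (median 289.6), with a fitted fold change of 2.29 (adjusted p = 0.465 in edgeR and 0.0201 in DESeq2). Emc3, a subunit of the membrane protein insertion complex, was lower in the high-share rats, at 172 to 308 normalized counts in the high-share rats (median 237) and 264 to 468 in the low-share rats (median 363), with a log2 fold change of -0.67 ± 0.15 (SE) (adjusted p = 0.465 in edgeR and 0.00373 in DESeq2).

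Col1a1 and Col1a2, the chains of type I collagen, had log2 fold changes of 2.87 ± 0.72 (SE) and 2.91 ± 0.75 (SE), adjusted p-values of 0.465 for both in edgeR, and 0.0106 for both in DESeq2. Col3a1, type III collagen, had 1662 normalized counts in rat 12, 282 in rat 9, 202 in rat 6, 96.7 in rat 7 and 96.1 in rat 5. The low-share rats had at most 57.7, and high-share rats 16, 15 and 13 had 16.4, 22.7 and 0. For Col1a1, rats 16, 15 and 13 had 0, 6.04 and 7.63, against at most 15.1 in the low-share rats. Sparc, a matrix glycoprotein, had 1436 in rat 12. Rat 12 also held the highest Mb count of these rats. Without it the log2 fold changes were 2.24 for Col1a1, 1.82 for Col1a2, 1.71 for Col3a1 and 0.60 for Sparc, all with adjusted p-values above the threshold. The part of connective tissue or of cardiac tissue in these counts was not tested.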
